A study of Rattus norvegicus with 6 samples.

Results

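The kallikrein-kinin genes of the rat were examined in renal cortex RNA of animals given phenylbutazone or corn oil. Members were the non-control array probes whose accession belongs to the RefSeq symbols Kng1, Kng2, Kng2l1, Klk1, Klkb1, Bdkrb1 or Bdkrb2, which gave 12 probes of 7 genes among 61537 probes. The tested animals were 3 male Sprague-Dawley rats, stock Crl:CD(SD), given phenylbutazone, an NSAID acting on the cyclooxygenases, at 200 mg/kg/day for 4 weeks. The controls were 3 male Sprague-Dawley rats of the same stock given corn oil, the vehicle, for the same 4 weeks. All animals were bought at the age of 5 weeks and ate the same basal diet, with 1 one-colour Agilent array run per animal. The genes were chosen by their measured log2 differences between these same groups, so the differences of the 12 probes are given as a description and carry no test.

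Kininogens are secreted precursor proteins, made chiefly by the liver, from which kallikreins cut the short vasoactive peptides called kinins. Klk1 encodes tissue kallikrein, which in the kidney is made by the connecting tubule, and Klkb1 encodes plasma prekallikrein, a zymogen of the contact system. Kinins act on the constitutive B2 receptor (Bdkrb2) and on the inducible B1 receptor (Bdkrb1), and in the kidney they dilate vessels and favour sodium excretion, in part through prostaglandins. The rat also has T-kininogens, which are acute phase proteins and cysteine protease inhibitors and are poor substrates of the kallikreins.

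The 3 kininogen genes lie side by side on chromosome 11, and their promoters are shown because the probes of all 3 genes stood higher in phenylbutazone. The windows run from 250 bases before to 50 bases after the annotated start and come from RefSeq on the assembly GRCr8; 6 of the 7 members had a window, matched by symbol. Capitals mark a run of 34 bases that is identical in the 3 kininogen windows and that only these 3 genes carry among all 33469 windows.
Kng1, GRCr8 chr11:91340099-91340398, minus strand: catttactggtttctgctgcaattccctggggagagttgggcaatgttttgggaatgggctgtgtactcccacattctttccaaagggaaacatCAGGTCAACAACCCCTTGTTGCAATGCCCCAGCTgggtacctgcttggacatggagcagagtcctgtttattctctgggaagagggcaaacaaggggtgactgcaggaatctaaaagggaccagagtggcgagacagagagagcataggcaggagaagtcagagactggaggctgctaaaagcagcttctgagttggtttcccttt
Kng2, GRCr8 chr11:91418220-91418519, plus strand: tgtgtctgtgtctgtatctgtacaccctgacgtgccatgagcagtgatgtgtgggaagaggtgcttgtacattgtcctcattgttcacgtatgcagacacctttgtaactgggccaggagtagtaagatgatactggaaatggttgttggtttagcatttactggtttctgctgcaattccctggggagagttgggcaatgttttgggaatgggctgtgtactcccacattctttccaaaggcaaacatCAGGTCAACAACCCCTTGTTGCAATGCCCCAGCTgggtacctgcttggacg
Kng2l1, GRCr8 chr11:91483169-91483468, plus strand: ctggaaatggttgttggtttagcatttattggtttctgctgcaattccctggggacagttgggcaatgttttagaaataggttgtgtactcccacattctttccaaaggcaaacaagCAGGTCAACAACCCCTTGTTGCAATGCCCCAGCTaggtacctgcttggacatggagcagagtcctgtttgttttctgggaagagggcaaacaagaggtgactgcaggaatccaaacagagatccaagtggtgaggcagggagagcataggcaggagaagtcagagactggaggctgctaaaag

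In the best local alignment the Kng1 and Kng2 windows matched at 143 of 144 positions, bases 1 to 144 of the Kng1 window against bases 156 to 299 of the Kng2 window. The annotated starts of this near-identical pair are therefore placed differently relative to the shared stretch. Kng1 and Kng2l1 matched at 256 of 278 aligned positions (92.1%), and Kng2 and Kng2l1 at 158 of 167 (94.6%). The 3 short motifs below were searched on both strands, with positions counted from the 5′ end of a window. The letters CTGGGAA, known from interleukin-6 response elements of rat acute phase genes, occurred at base 169 of the Kng1 window, base 192 of the Kng2l1 window and base 83 of the Klk1 window, and in 11.3% of all windows. The Kng2 window of 300 bases ends near the base aligned with base 144 of Kng1, so the stretch matching Kng1 base 169 was not searched in Kng2. The letters TTCNNNGAA, the general form of a STAT site, occurred at base 190 of the Kng2l1 window, where they overlap CTGGGAA, and in 8.87% of all windows. The letters TTGCNNAA, a form of C/EBP site, occurred on the reverse strand at base 37 of the Kng1 window, base 192 of the Kng2 window, base 59 of the Kng2l1 window and base 43 of the Klkb1 window, and in 10.6% of all windows. The other Kng2l1 window, not printed here, held CTGGGAA at base 93 and TTCNNNGAA at base 91, and no TTGCNNAA. Such matches describe the letters in these windows and are not sites of binding.

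Levels below are log2 intensities relative to the 75th percentile of the same array, and differences are phenylbutazone minus vehicle with the standard error (SE) of a limma fit over all probes kept. Kept were 41006 of 61537 probes, those without an outlier flag that 3 or more of the 6 arrays read well above background. The share of probes read so ran from 65.2% to 68.4% per array, and the 75th percentile from 891 to 1003 intensity units. All phenylbutazone arrays sat on slide 2 together with vehicle 3, while vehicles 1 and 2 sat on slide 1, scanned on another day. For the member probes kept and for some other genes the difference is therefore also given against vehicle 3 alone, the value within slide 2. The remaining differences are given over both slides only. In limma 0 of 41006 probes had an adjusted p under 0.05 (0%), and 4606 had an unadjusted p under 0.05 (11.2%). Without vehicle replicate 3, where slide and treatment coincide, 1041 were called, 0 of them kininogen probes. The 10 proximal tubule markers were all measured, with a summed linear level of 2002 to 2018 in phenylbutazone and 1875 to 2093 in vehicle, in units of the array's 75th percentile.

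Of the 12 member probes 10 passed the filter on dim probes, and the other 2, A_64_P118628 of Bdkrb1 and A_42_P758810 of Bdkrb2, were well above background on 0 of 6 arrays. Of the 10 probes measured, 0 were called by limma, against 0% of all probes. In 6 of the 10 every phenylbutazone value lay above every vehicle value, as in 11.2% of all probes kept. At least 2-fold higher in phenylbutazone were 5 of the 10, namely all 5 kininogen probes, against 0.756% of all probes, and in these 5 the groups also lay apart, as in 0.456% of all probes. The comparison chose the genes, so nothing is read from these shares.

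All kininogen probes stood higher in each phenylbutazone animal than in any vehicle animal, 5.71-fold to 7.50-fold for the 4 probes of Kng1 and Kng2 and 2.83-fold for the probe of Kng2l1. The Kng1 probe A_44_P454376 (NM_001009628) read 0.56, 2.56 and 1.64 in phenylbutazone animals 1, 2 and 3, against -1.45, -1.73 and -0.78 in vehicle animals 1, 2 and 3. Phenylbutazone animal 2 was the highest and animal 1 the lowest of its group, and vehicle animal 3 was the highest vehicle. The groups were 1.34 log2 units apart at their nearest values. The difference was 2.91 ± 0.52 (SE, n = 3 per group), and 2.37 against vehicle 3 within slide 2. In processed intensity these levels were 1313, 5665 and 3041 units in phenylbutazone and 349, 302 and 536 units in vehicle, so every array gave a reading well above background.

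The other Kng1 probe, A_64_P137063, read -1.65, 0.31 and -0.45 in phenylbutazone animals 1, 2 and 3, against -3.12, -3.27 and -2.93 in vehicle animals 1, 2 and 3. The order of the animals was the same within both groups as for A_44_P454376. Its difference was 2.51 ± 0.47 (SE, n = 3 per group), and 2.34 against vehicle 3.

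Kng2, whose synonyms in RefSeq include the T-kininogen names Kngt, Tkg and Map1, was read by 2 probes of the accession NM_012696. A_44_P151156 read 0.99, 2.97 and 2.09 in phenylbutazone animals 1, 2 and 3, against -0.97, -1.27 and -0.25 in vehicle animals 1, 2 and 3. A_44_P348781 read 0.84, 2.77 and 2.00 in phenylbutazone, against -1.01, -1.32 and -0.50 in vehicle. For both probes the groups lay apart and the animals fell in the same order as for Kng1. The differences were 2.85 ± 0.52 and 2.81 ± 0.50 (SE, n = 3 per group), and 2.27 and 2.37 against vehicle 3.

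Kng2l1 was read by 1 probe, A_44_P296167 (NM_012741), at -2.00, -0.84 and -0.47 in phenylbutazone animals 1, 2 and 3, against -2.07, -2.98 and -2.77 in vehicle animals 1, 2 and 3. The groups did not overlap but nearly touched, with phenylbutazone animal 1 only 0.068 above vehicle animal 1. Here phenylbutazone animal 3 was the highest, and the highest vehicle was animal 1 rather than animal 3. The difference was 1.50 ± 0.44 (SE, n = 3 per group), and 1.66 against vehicle 3. RefSeq lists the K-kininogen names Kngk, KINKG and KINKH as synonyms of both Kng2 and Kng2l1, so the files do not settle which probe reads K-kininogen.

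**Figure D1:**
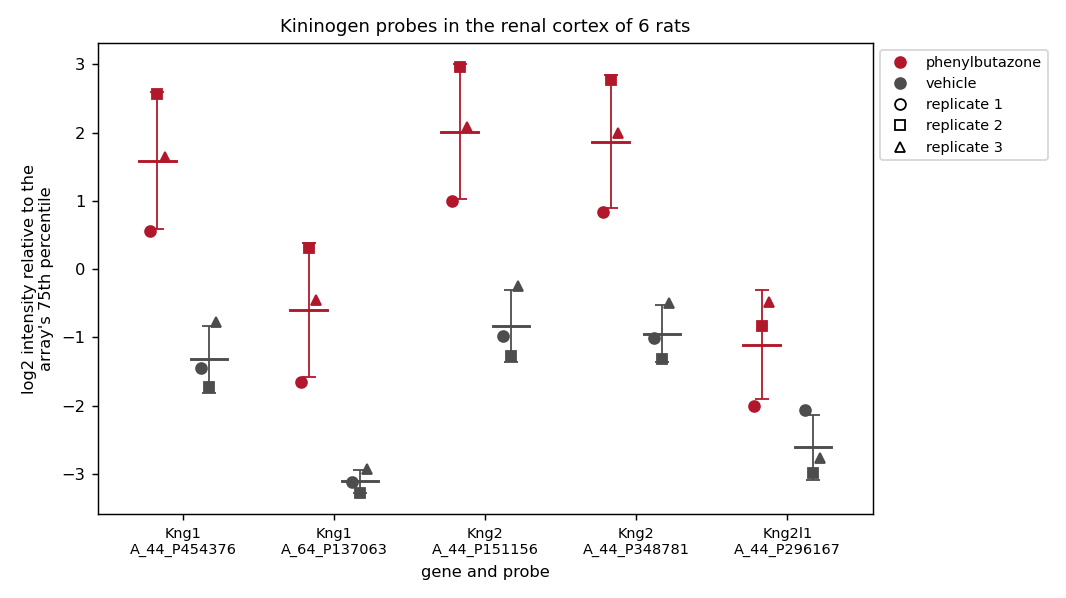
Log2 intensity relative to the array's 75th percentile for the 5 kininogen probes, phenylbutazone in red to the left of vehicle in grey; symbols are single animals, horizontal lines means and bars SD (n = 3 per group). All phenylbutazone animals lie above all vehicle animals for each probe, with a gap of 0.068 for Kng2l1 and of 1.25 to 1.34 for the others.

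The Kng1 and Kng2 probes could hardly be told apart in their course over the animals. Averaged over the probes of a gene and set against the vehicle mean, Kng1 stood at 1.67, 3.65 and 2.81 and Kng2 at 1.81, 3.75 and 2.93 in phenylbutazone animals 1, 2 and 3. Kng1 minus Kng2 thus lay between -0.13 and -0.11 in phenylbutazone and between -0.15 and 0.12 in vehicle. The genes are close paralogs, and how far each probe also binds the other transcript was not tested, so the values of Kng1 and Kng2 are uncertain as values of separate genes. Kng2l1 minus Kng2 lay lower, at -1.20, -1.99 and -0.80 in phenylbutazone animals 1, 2 and 3, against 0.64, 0.028 and -0.67 in vehicle animals 1, 2 and 3. In bulk RNA of this kind, more RNA per cell and more cells of a type cannot be told apart.

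Of the 5 protein-coding genes on either side of the kininogen cluster 8 were measured, and for 0 of the 8 did the groups lie apart, against 11.2% of all probes with phenylbutazone higher and 9.08% with it lower. Next to the cluster lie genes of 3 further plasma proteins with cystatin domains. The histidine-rich glycoprotein gene Hrg stood at -0.89 ± 0.34 and the fetuin-B gene Fetub at 0.56 ± 0.26 (SE, n = 3 per group). The fetuin-A gene Ahsg stood at -0.11 ± 0.16 by its brightest probe, and 2 dimmer Ahsg probes at -1.11 and -1.72. On the other side, Eif4a2, a translation initiation factor gene, stood at 0.14 ± 0.12, and Adipoq, which encodes adiponectin, at -0.29 ± 0.19.

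**Figure D2:**
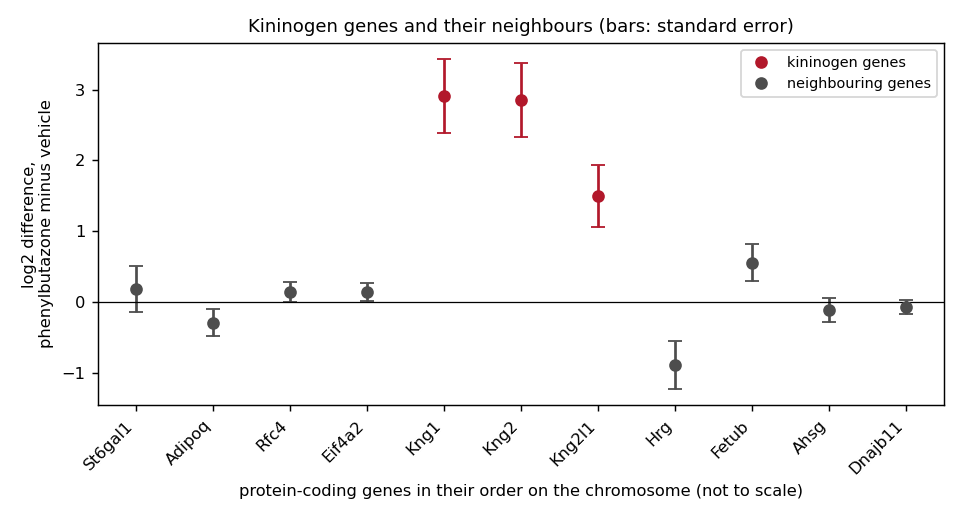
Log2 difference, phenylbutazone minus vehicle, with its standard error (n = 3 per group) for the kininogen genes in red and their measured protein-coding neighbours in grey, in order along the chromosome and each by its probe with the highest mean. The kininogens stand at 1.50 to 2.91 and the neighbours between -0.89 and 0.56.

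Klk1, the gene of tissue kallikrein, had a small difference and overlapping groups. Its probe A_44_P399414 (NM_012593) read 7.67, 7.43 and 7.21 in phenylbutazone animals 1, 2 and 3, against 7.22, 7.34 and 6.98 in vehicle animals 1, 2 and 3. Phenylbutazone animal 3 lay below both vehicle animals 1 and 2. The difference was 0.26 ± 0.16 (SE, n = 3 per group), and 0.45 against vehicle 3, and the probe was saturated on 0 arrays.

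Glandular kallikreins are a family of close paralogs, and the bright relatives of Klk1 ran in the same order of animals. Klk1b3 stood at 0.19 ± 0.21, Klk1c3 at 0.22 ± 0.19, Klk1c2 at 0.035 ± 0.18 and Klk1c8 at 0.029 ± 0.28 (SE, n = 3 per group). In all of these, as in Klk1, phenylbutazone animal 1 was the highest and animal 3 the lowest of its group, and vehicle animal 2 was the highest and animal 3 the lowest of the vehicles. How far these probes read one another's transcripts was not tested. Klk1c10 had the largest difference of the measured paralogs in size, 1.30 ± 0.76, with overlapping groups and 1.58 in phenylbutazone animal 1 against -0.41 and -1.20 in animals 2 and 3; it was picked after its values were seen. The connecting and distal convoluted tubule markers, 4 measured of 7, had a summed level of 23.0 to 30.0 in phenylbutazone and 22.0 to 30.2 in vehicle. This sum was led by Slc12a3, the brightest of them. Of the 4 only the dimmer Trpv5 had groups that lay apart, at 1.12 ± 0.28.

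Klkb1, the plasma prekallikrein gene, varied more between animals of a group than between groups. Its probe A_43_P11534 (NM_012725) read -0.52, -4.17 and -1.11 in phenylbutazone animals 1, 2 and 3, against -2.24, -1.29 and -4.11 in vehicle animals 1, 2 and 3. One animal of each group, phenylbutazone 2 and vehicle 3, read about 53 intensity units, while the other 4 read between 202 and 622. The difference was 0.61 ± 1.13 (SE, n = 3 per group). It was 2.18 against vehicle 3, turned to -0.17 without vehicle replicate 3 and to -0.095 without phenylbutazone replicate 1, and thus has no settled direction.

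The kinin receptors were dim. For Bdkrb1, the gene of the inducible B1 receptor, A_44_P328205 read -5.13, -5.22 and -4.93 in phenylbutazone animals 1, 2 and 3, against -4.81, -4.39 and -5.10 in vehicle animals 1, 2 and 3. The groups overlapped through vehicle animal 3. The difference was -0.33 ± 0.20 (SE, n = 3 per group), but 0.0088 against vehicle 3 and -0.035 with normexp background correction. The other Bdkrb1 probe was not well above background on any array and gives no fold.

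Bdkrb2, the gene of the B2 receptor, was read by 3 probes that did not give the same picture. A_44_P313516 (NM_173100) read -3.35, -3.33 and -3.56 in phenylbutazone animals 1, 2 and 3, against -3.26, -3.37 and -3.36 in vehicle animals 1, 2 and 3. These groups overlapped, with a difference of -0.079 ± 0.11 (SE, n = 3 per group) and of -0.051 against vehicle 3. A_64_P036715, of the transcript NM_001270713, read -4.95, -4.68 and -4.41 in phenylbutazone, against -5.05, -5.35 and -5.17 in vehicle. Here the groups lay apart by 0.11, with a difference of 0.51 ± 0.17 (SE, n = 3 per group) and of 0.49 against vehicle 3. This probe was well above background on 3 of 3 phenylbutazone and 2 of 3 vehicle arrays, and its difference was 0.13 with normexp. The last Bdkrb2 probe, also of NM_001270713, was well above background on 0 of 6 arrays and gives no fold.

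**Figure D3:**
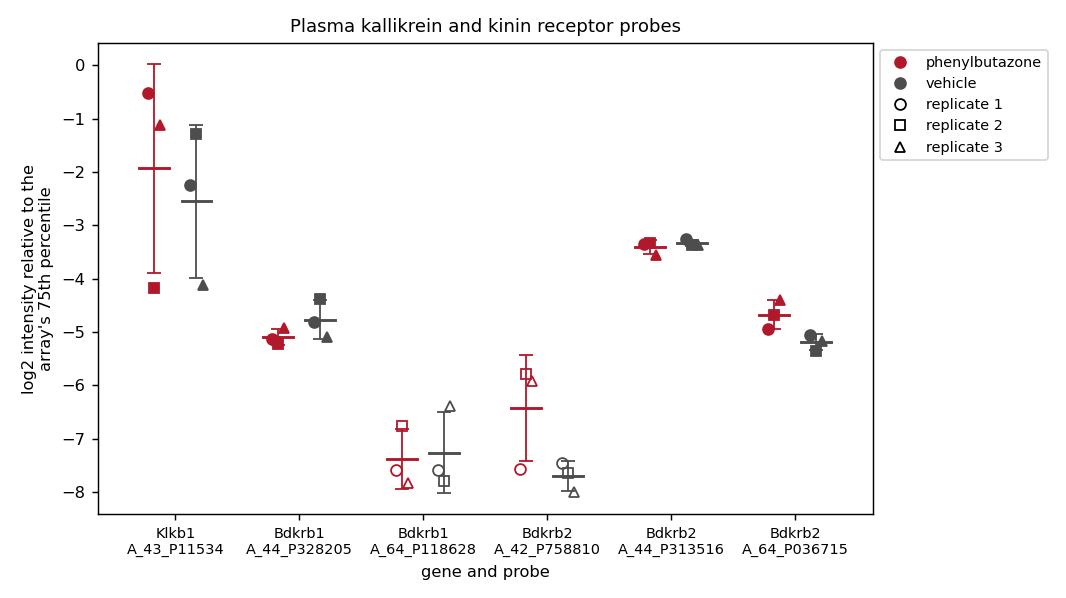
Log2 intensity relative to the array's 75th percentile for the Klkb1, Bdkrb1 and Bdkrb2 probes, phenylbutazone in red to the left of vehicle in grey; symbols are single animals, lines means and bars SD (n = 3 per group), and open symbols are the 2 probes that did not pass the filter on dim probes. Of the probes with filled symbols, the groups lie apart only for Bdkrb2 A_64_P036715, and Klkb1 has one low animal in each group.

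**Figure D4:**
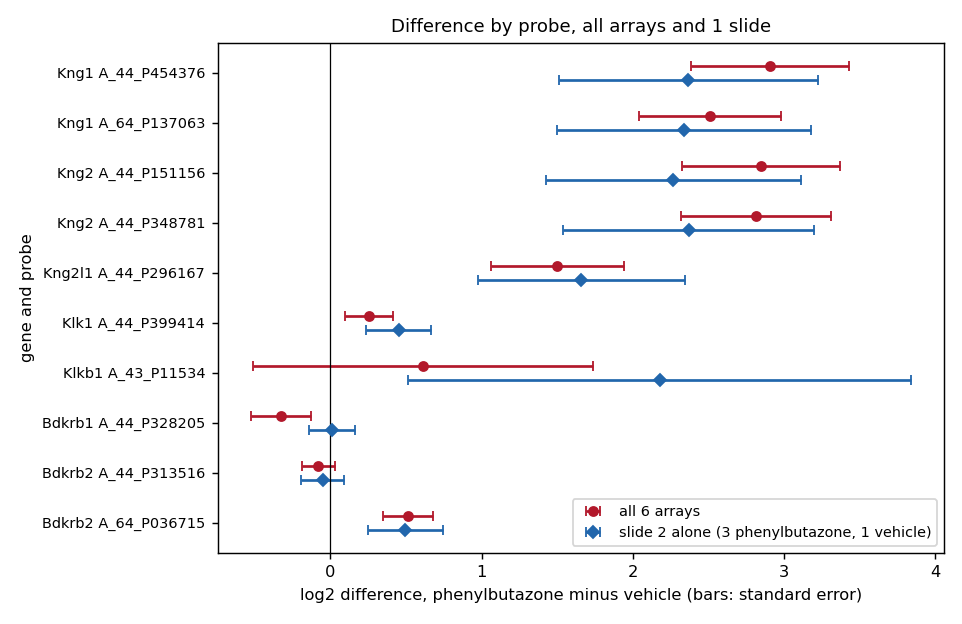
Log2 difference, phenylbutazone minus vehicle, with its standard error for the 10 probes that passed the filter, over all 6 arrays (red circles) and on slide 2 alone (blue diamonds), where vehicle animal 3 is the only vehicle and is assumed to vary like the phenylbutazone animals. The kininogen probes stand at 1.50 to 2.91 over all arrays and at 1.66 to 2.37 on slide 2, and Klkb1 stands at 0.61 over all arrays and at 2.18 on slide 2.

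The genes around the kinin peptides were read from 7 lists of 97 genes, of which 76 were measured, each by its probe with the highest mean. With limma 0 of the 76 had an adjusted p under 0.05 (lowest adjusted p = 0.259), and 13 (17.1%) had an unadjusted p under 0.05, 6 higher and 7 lower, against 11.2% of all probes, 5.43% higher and 5.81% lower. The groups lay apart with phenylbutazone higher in 10 of the 76 (13.2%), against 11.2% of all probes, and with phenylbutazone lower in 5 (6.58%), against 9.08% of all probes. The median difference was 0.059, and 0.0093 over all probes.

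Kinin-degrading peptidases, 16 measured of 17, had a median difference of -0.020 and a range of -0.39 to 0.43, with 0 called higher and 0 lower by limma. Mme, which encodes neprilysin, stood at 0.29 ± 0.73, and Ace, the gene of angiotensin-converting enzyme, at -0.25 ± 0.41 (SE, n = 3 per group). Against vehicle animal 3 alone Mme stood at 1.46 and Ace at 0.71. Mme was low in phenylbutazone animal 1 as well, at 0.47, beside 0.32 in vehicle animal 3. Dimmer Ace probes stood at 0.013 and -0.035. The carboxypeptidase M gene Cpm, with phenylbutazone higher in 3 of 3 animals, stood at 0.35 ± 0.12 (limma adjusted p = 0.392). Xpnpep2 and Prcp, further peptidase genes that trim kinins or angiotensins, stood at -0.15 ± 0.24 and -0.11 ± 0.094. Against vehicle 3 alone they stood at -0.70 and -0.15.

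Contact system genes, 5 measured of 6, had a median of 0.19, with 0 called in either direction. F12, which encodes factor XII, the protease that activates prekallikrein, stood at 0.73 ± 0.37 with overlapping groups (SE, n = 3 per group). Its probe was dim, and well above background on 3 of 3 phenylbutazone and 2 of 3 vehicle arrays. Krt1, a keratin gene whose product is among the surface partners of kininogen, stood at -0.52 ± 0.12, with phenylbutazone lower in 3 of 3 animals (limma adjusted p = 0.289).

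Inhibitors of kallikreins and contact proteases, all 11 measured, had a median of 0.14 with 0 called. Serpina3n, a serine protease inhibitor gene of the acute phase, read 0.22, 0.50 and 1.28 in phenylbutazone animals 1, 2 and 3, against -2.04, -1.13 and -3.41 in vehicle animals 1, 2 and 3. The groups lay apart, at 2.86 ± 0.59 (SE, n = 3 per group, limma adjusted p = 0.259), and at 4.08 against vehicle 3. The difference over all arrays was about the size of that of Kng1. However, the highest phenylbutazone animal was animal 3 and the lowest vehicle was animal 3. Serpina3c, the gene of rat kallikrein-binding protein, stood at -1.16 ± 0.38 with the groups apart (limma adjusted p = 0.375), and at -0.43 against vehicle 3. Its probe was well above background on 2 of 3 phenylbutazone and 3 of 3 vehicle arrays. Serping1, which encodes C1 inhibitor, and Serpina5, which encodes protein C inhibitor, stood at 0.49 ± 0.27 and 0.12 ± 0.21 with overlapping groups.

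Kallikrein paralogs, 10 measured of 24, had a median of 0.11 with 0 called. Cystatin relatives, 7 measured of 8, had a median of 0.12 with 0 called. The cystatin C gene Cst3 stood at 0.31 ± 0.13, and at 0.11 against vehicle 3. Genes of kinin receptor signalling, 15 measured of 17, had a median of -0.017 with 0 called. Among these the inducible nitric oxide synthase gene Nos2 stood at -0.65 ± 0.19 with the groups apart (SE, n = 3 per group, limma adjusted p = 0.343). The endothelial synthase gene Nos3 stood at -0.28 ± 0.24, the G protein gene Gnaq at -0.017 ± 0.14 and the phospholipase C gene Plcb1 at 0.36 ± 0.17. Against vehicle 3 alone Nos2 stood at -0.87, Nos3 at -0.83, Gnaq at -0.082 and Plcb1 at 0.0080.

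Acute phase genes, 14 measured of 16, had a median of 0.10 with 0 called. Beside Serpina3n the groups lay apart for Lcn2, the lipocalin 2 gene, at 0.94 ± 0.22 (limma adjusted p = 0.301), and for the fibrinogen gamma chain gene Fgg at 1.54 ± 0.59 (limma adjusted p = 0.424). Of the 14 genes 9 had a difference above 0 and 5 below. Serpina1, Itih3 and Itih4, genes of plasma protease inhibitors and hyaluronan-binding proteins, were picked after their values were seen, as the lowest of the list. They stood at -1.64 ± 0.66, -1.07 ± 1.18 and -0.89 ± 0.90 (SE, n = 3 per group) with overlapping groups. In that order they were well above background on only 1, 1 and 2 of 3 phenylbutazone arrays, and each on 2 of 3 vehicle arrays. Fgg cleared the background on all 3 phenylbutazone arrays but on only 1 of 3 in vehicle, and a dimmer Fgg probe stood at 1.87. The genes of the other fibrinogen chains, Fgb and Fga, stood at 0.70 ± 0.43 and 0.33 ± 0.37 with overlapping groups. The haptoglobin gene Hp stood at 0.061 ± 0.42, and Orm1, which encodes orosomucoid, was not measured above the filter.

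**Figure D5:**
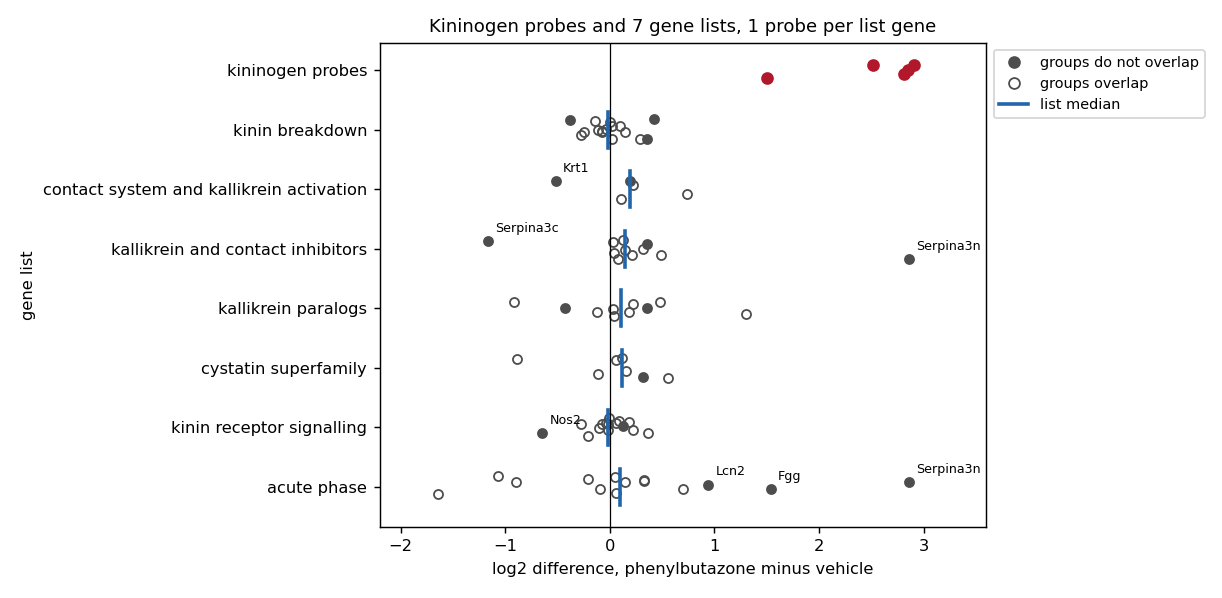
Log2 difference, phenylbutazone minus vehicle, of the 5 kininogen probes (red) and of the measured genes of 7 lists (grey), filled where the groups do not overlap; blue lines are list medians, between -0.020 and 0.19. Serpina3n, at 2.86 and in 2 lists, is the only list gene within the range of the kininogen probes other than Fgg at 1.54.

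Markers of hepatocytes, the main source of plasma kininogen, overlapped between the groups. The 8 hepatocyte markers had a median difference of -0.56 and a summed level of 1.53 to 10.8 in phenylbutazone and 1.91 to 7.90 in vehicle. The groups lay apart for 0 of the 8, against 11.2% of all probes with phenylbutazone higher and 9.08% with it lower. Their defining marker Alb, the albumin gene, was highest in vehicle animal 2 at 0.27, against -5.62 to -1.58 in phenylbutazone and -4.64 and -1.56 in the other vehicles. Of the 6 intercalated cell markers, each by its brightest probe, 5 had a difference above 0 and Rhcg, an ammonia transporter gene, stood at -0.19. Dimmer probes stood at -0.38 for Slc4a1 and at -0.22 and -0.17 for Foxi1, whose brightest probes each stood at 0.16. Those of Atp6v1g3 and Slc26a4 stood at 0.51 and 0.42. The groups lay apart with phenylbutazone higher for 3 of the 6 (Slc26a4, Atp6v1g3 and Atp6v0d2), against 11.2% of all probes, and the summed level of the 6 was 175 to 219 in phenylbutazone and 118 to 157 in vehicle. Thick ascending limb markers summed to 326 to 432 in phenylbutazone and 226 to 346 in vehicle, a sum led by the brightest of them, Umod. Of these 7 markers 4 had a difference above 0 and 3 below, with a median of 0.16. Erythrocyte markers, 6 measured of 7, summed to 572 to 913 in phenylbutazone and 486 to 669 in vehicle. The part of these cells in the kininogen result was not tested.

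Among 12148 other genes with a symbol, the 5 whose course over the 6 arrays was most like that of the Kng1 probe A_44_P454376 were taken by Pearson's r over 6 arrays, as a description. Ccl20, which encodes the chemokine that binds Ccr6, came first at r = 0.992 and read 0.45, 2.82 and 1.75 in phenylbutazone animals 1, 2 and 3, against -2.94, -2.45 and -1.64 in vehicle animals 1, 2 and 3. It too was highest in phenylbutazone animal 2 and lowest of its group in animal 1, with vehicle animal 3 the highest vehicle. Fscn3 (r = 0.991), St6galnac2 (0.990), Gpx4 (0.988) and Maff (0.986) followed, with differences of 0.75, 0.49, 0.20 and 0.96. All 5 share the arrays, and so the difference between the groups, with the Kng1 probe.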

How the data were processed

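Renal cortex RNA of 6 rats was labelled with Cy3 and hybridised to one-colour Agilent arrays, 1 per animal. Spots were read, per the file headers and the submitters' processing notes, with Agilent Feature Extraction 10.7. The deposited processed intensity is, per the file headers, background-subtracted and detrended within the array but not scaled between arrays. The probe layout in the headers names the build rn4, of which no coordinate is used. The deposited value table holds a ratio: 100% of its values of at least 0.05 lay within 1% of the processed intensity over the array's 75th percentile. Its column medians were 0.105, 0.106 and 0.107 for phenylbutazone and 0.110, 0.110 and 0.109 for vehicle, so scale, centring and direction are settled.

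From the scanner files, the intensities of 61537 non-control probes were put on the log2 scale after division by the 75th percentile of their array. The 40 probes with an outlier flag and those well above background on fewer than 3 arrays were left out. Accessions without version named 28206 probes (45.8%) through RefSeq of GRCr8. Differences were fitted for every probe in R 4.3.3 using limma 3.58.1 (lmFit, then eBayes, two-sided). Benjamini-Hochberg adjustment ran over 41006 probes with a threshold of 0.05. The code of the fit was also run on simulated data with independent noise and no slide effect, so that run cannot speak to the part of slide. Per the series design the replicates are biological, and their number, 3 per group, limits the precision. Promoter windows were aligned locally with Biopython 1.88 (match 1, mismatch -1, gap opening -3, extension -1); of the 2 Kng2l1 windows the one closer to Kng1 is printed.

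The members and the lists were chosen with earlier results of these data known. Named were all member probes, a fixed set of list genes (Ace, Mme, Xpnpep2, Cpm, Prcp, F12, Serping1, Serpina5, Ahsg, Fetub, Cst3, Nos3, Gnaq, Plcb1, Klk1c2, Klk1b3, Orm1, Hp and 1 gene not reported here), list genes past the threshold, list genes whose groups lay apart with a difference of at least 0.5 (up to 6 per list), and the 5 genes most like the leading member probe. Motifs, chromosomal neighbours and the marker genes given with values were chosen after their letters or values were seen. Normexp (offset 50) was run on the median spot intensity. Alternatives were other scalings, background correction, filters, 1 probe per gene, an intensity trend, single replicates left out, slide, and a block for the replicate number.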

Additional observations from a re-analysis of the deposited data

How the results depend on the processing

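The number of probes called over the whole array by limma, 0, was 2 with normexp, 1 with quantile normalization, 1 with an intensity trend and 1 with slide as a random block, and lay between 0 and 1041 when single replicates were left out. The 1041 arose without vehicle replicate 3, where every phenylbutazone array is on slide 2 and every vehicle array on slide 1. The part of slide cannot be told apart there from that of the animal left out, and the cause of the other changes was not tested. Pathway genes called stayed at 0 under all 18 alternatives. Member probes at least 2-fold higher numbered 5, and 3 with 1 probe per gene, since fewer probes are then tested. They numbered 6 without the filter on dim probes, where the added probe was Bdkrb2 A_42_P758810, well above background on 0 of 6 arrays. They also numbered 6 with slide as a fixed or a random block and on slide 2 alone, and 5 to 6 without single replicates. In these settings the added probe was that of Klkb1, which has no settled direction. All 88 values of the kininogen probes under the alternatives were above 0, between 1.19 and 3.42. The lowest was that of Kng2l1 without phenylbutazone replicate 3, and the highest that of Kng1 without phenylbutazone replicate 1. These values re-read the same 6 arrays by which the genes were chosen. The groups of the kininogen probes do not overlap, so leaving out arrays could not turn the sign. Of 88 values of the other member probes 84 moved by less than 1 SD. The other 4 were those of Bdkrb1 with normexp, slide as a fixed block and slide 2 alone, and of Bdkrb2 A_64_P036715 with normexp. Replicate numbers gave no sign of pairing the animals. Deviations of same-numbered arrays correlated at -0.024, 0.0028 and -0.081 over 41006 probes, and those of other combinations between -0.10 and 0.11. With 3 arrays per group these values cannot show that the animals were unpaired. With the replicate block 0 probes were called, as without it. For the dim receptor probes, Bdkrb2 A_64_P036715 was lowest with normexp, at 0.13, and Bdkrb1 A_44_P328205 moved from below 0 to 0.0088 within slide 2.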

Other observations

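Several other genes of secreted liver proteins varied between single animals rather than between groups, as Klkb1 did; they are marker genes picked after their values were seen. F2, which encodes prothrombin, read -0.81, 3.13 and 2.81 in phenylbutazone animals 1, 2 and 3, against 0.45, 2.14 and -0.46 in vehicle animals 1, 2 and 3. Ttr, the transthyretin gene, read -7.64, -4.02 and -2.52 in phenylbutazone, against -7.38, -0.36 and -2.61 in vehicle, and was well above background on 2 of 3 arrays of each group. In both genes phenylbutazone animal 1 was the lowest of its group and vehicle animal 2 the highest vehicle, unlike Klkb1, which was lowest in phenylbutazone animal 2 and vehicle animal 3.

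Trpv5, the calcium channel gene of the connecting tubule, stood apart from the other markers of that segment. It read -1.83, -0.84 and -0.93 in phenylbutazone animals 1, 2 and 3, against -2.51, -2.28 and -2.16 in vehicle animals 1, 2 and 3, a difference of 1.12 ± 0.28 (SE, n = 3 per group) without overlap of the groups. Calb1, the calbindin gene of the same segment, stood at -0.20 ± 0.22, and Slc12a3, the thiazide-sensitive cotransporter gene, at 0.016 ± 0.17. With limma 0 of these 3 passed, and Trpv5 alone had an unadjusted p under 0.05.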
